A study of Sus scrofa with 25 samples.

Results

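Muscle of pigs fed 5000 IU of vitamin D3 per kg of feed was compared with muscle of pigs whose feed held 0 IU/kg. The comparison took the 8 libraries labelled with the 5000 dose (D5000) and the 8 labelled control, 16 of the 25 libraries of the series, with 1 library per pig. Replicate numbers are those of the animals. All pigs came from Landrace boars and sows of the Polish Large White breed, and both diets were equal in protein and energy and were fed for 90 days from day 85 of life in single straw-bedded pens. The other 9 pigs had 10000 IU/kg and enter only where this is stated. Littermates were spread over the diets at random. The litter and sex of each pig, the muscle sampled and the vitamin D status of the blood are not stated in the labels. The question was what this dose does to the muscle transcriptome, read with 3' end sequencing (QuantSeq), in which a transcript gives reads near its 3' end whatever its length.

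Vitamin D3 from skin or feed is hydroxylated first in the liver, by CYP2R1 and CYP27A1, and then mainly in the kidney by CYP27B1 to the active hormone. The hormone binds the vitamin D receptor VDR, which pairs with a retinoid X receptor on DNA, and CYP24A1, the enzyme that breaks the hormone down, is the classical gene it induces. In muscle the hormone has been studied for its part in calcium handling, fibre growth and energy metabolism, while the amount of VDR in adult muscle is low.

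Gene counts ran from 6403176 to 11222956 per control library and from 4328704 to 12203813 per D5000 library. The skeletal actin gene ACTA1 held 20568 to 315960 CPM in the control and 48146 to 293585 CPM in D5000, where CPM are counts scaled to 1000000 per library after TMM, so the libraries carry the markers of the labelled tissue. Reads assigned to genes made up 58.4% ± 8.76 (SD, n = 8) of the reads in the control files and 51.8% ± 12.6 (SD, n = 8) in the D5000 files (exact permutation p = 0.259, adjusted p = 0.644 over 10 library measures). Of these 10 measures, 0 had an adjusted p under 0.05 (smallest 0.492). A pair of D5000 libraries stood apart. Replicate 18 had 24.9% of its reads assigned and 38.7% aligned to several places, and 33 of 5651 genes with a median of at least 10 CPM elsewhere had a count of 0 there, against 0 to 3 such genes in the other 15 libraries. It lay at 144.19 on the first principal component, where the others spanned -57.05 to 40.03. Replicate 6 lay at -120.98 on the second, where the others spanned -17.24 to 44.55. Results that rest on these libraries are given with and without them.

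**Figure D1:**
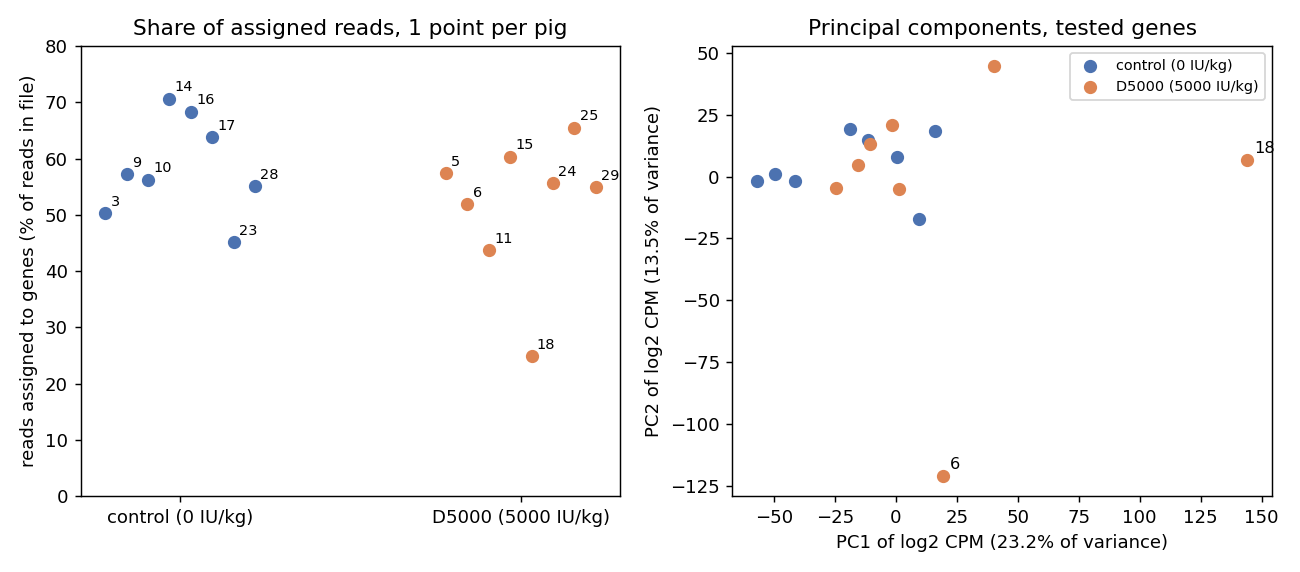
Share of reads assigned to genes for each pig, labelled with its animal number (left, percent of the reads in its file), and the 16 libraries on the first 2 principal components of log2 CPM (right). D5000 replicate 18 is lowest on the left, at 24.9%, and far to the right on the first component, and D5000 replicate 6 is far down on the second.

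With edgeR, 0 of 10196 genes tested passed an adjusted p of 0.05 (0%), and the smallest adjusted p, shared by 1501 genes, was 0.844. DESeq2 and limma voom also gave 0 genes. At an unadjusted p under 0.05 edgeR gave 555 genes, 5.44% of those tested, where 509.8 would fall with no difference at all. Of these, 367 (3.6% of the genes tested) had a higher value and 188 (1.84%) a lower value at 5000 IU/kg. DESeq2 gave 834 and voom 690 at the same unadjusted p. The median log2 fold change over all tested genes was 0.02, and 52.3% had a fitted value above the control. A typical gene carried a standard error of 0.37 (median over genes), so that a difference of that size on the log2 scale was not detectable at this depth and number of pigs. Spread was wider in D5000: the SD of log2 CPM had a median over genes of 0.81 against 0.66 in the control, and 0.63 in D5000 without replicates 6 and 18. No gene below is called changed, and "above" and "below" the control describe fitted values only.

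**Figure D2:**
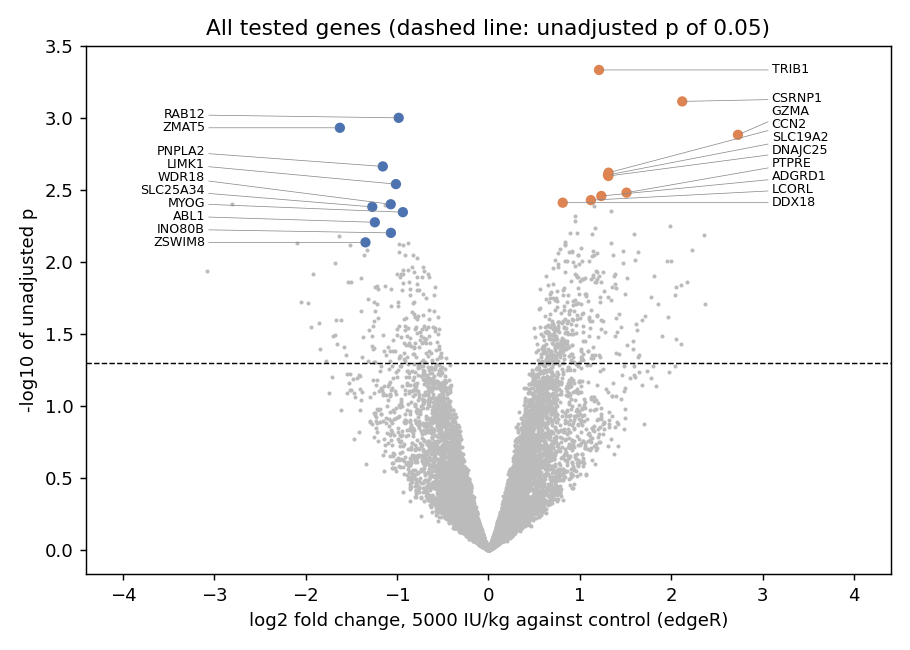
Log2 fold change at 5000 IU/kg against control (horizontal) and minus log10 of the unadjusted edgeR p (vertical) for each of 10196 genes. The named points are the 10 genes with a symbol and the smallest p above the control (orange) and the 10 below it (blue), and all of them share an adjusted p of 0.844.

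Most tested genes of vitamin D uptake, metabolism and the receptor complex lay above the control by small amounts. The receptor and the induced enzyme were at or near 0 counts in both diets and, like the hydroxylases CYP2R1 and CYP27B1, were not tested. Of 16 tested genes of uptake, metabolism and the receptor complex, 13 had a fitted value above the control and 3 below (52.3% above over all genes), with a median log2 fold change of 0.36 against 0.02. None of the 16 reached an unadjusted p of 0.05 in edgeR. The mean of the list lay between 4.34 and 5.14 log2 CPM in the control and between 4.66 and 5.45 in D5000, above the control mean in 7 of 8 D5000 pigs, with the diets overlapping. Without D5000 replicates 6 and 18 the median was 0.23 (14 of 17 above). With assigned share as a covariate it was 0.17 (13 of 16), and with the mean of liver transcripts as a covariate 0.03 (9 of 16). Of its members, the carrier GC and the hydroxylase CYP27A1 are also among those liver transcripts.

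VDR (ENSSSCG00000020864) was read with 0 to 8 counts per library, and was at 0 in 4 of 8 control pigs and 4 of 8 D5000 pigs. The 2 highest D5000 pigs (replicates 24 and 5, at 1.06 and 1.00 CPM) were level with the highest control pig (replicate 9, at 1.00 CPM). This depth gives no estimate of a difference in the receptor, and it was left out of the test by the filter on low counts. CYP24A1 (ENSSSCG00000007486) had 0 counts in all 16 libraries. In 1 library taken alone, 0 counts leaves room for an expected count of up to 3. Counts of 0 in all 16 together leave room for less than that in each. CYP27B1 (ENSSSCG00000028637) had 1 count in control replicate 9, 9 counts in D5000 replicate 29 and 0 in the other 14 libraries. CYP2R1 (ENSSSCG00000013389), with 0 to 36 counts in the control and 0 to 50 in D5000, was also under the filter. The uptake receptors LRP2 and CUBN had 88 and 23 counts over all 16 libraries. Receptor partners could be read well. RXRA (ENSSSCG00000038220) stood at 118 CPM at the lowest, 151 at the median and 203 at the highest in the control, and at 101, 151 and 208 CPM in D5000. These ranges coincide, and the log2 fold change was 0.03 ± 0.22 (SE; edgeR p = 0.891; exact permutation p = 0.874). RXRB stood at 0.21 ± 0.35 and RXRG at -0.34 ± 0.49.

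Coregulators of the receptor gave the smallest p in that list. SNW1 (ENSSSCG00000022932), a splicing factor that also binds the receptor, stood at 22.7, 30.5 and 41.1 CPM (lowest, median, highest) in the control and 30.6, 38.8 and 65.3 CPM in D5000. All 8 D5000 pigs lay above the control median and 3 above the highest control pig, at a log2 fold change of 0.40 ± 0.22 (edgeR p = 0.0873; exact permutation p = 0.0435), or 0.23 ± 0.21 without D5000 replicates 6 and 18. BAZ1B, a chromatin remodeller subunit, stood at 0.48 ± 0.27 (edgeR p = 0.0902; exact permutation p = 0.0984), but at 0.14 ± 0.25 without those 2 libraries. The remodelling ATPase SMARCA4 was at 0.44 ± 0.25 and the coactivator NCOA3 at 0.75 ± 0.58. The coactivator NCOA1 stood at -0.23 ± 0.26. PDIA3 (ENSSSCG00000004700), a chaperone that has also been described as a membrane receptor of the hormone, gave 29.6, 66.3 and 101 CPM in the control and 31.3, 70.8 and 132 CPM in D5000, at 0.34 ± 0.31 (edgeR p = 0.293; exact permutation p = 0.388). Its ranges overlap almost whole, and with liver transcripts as a covariate its value was -0.12.

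Known targets of the receptor were split evenly: 7 of 14 tested were above the control and 7 below, with a median log2 fold change of 0.06 and 0 at an unadjusted p under 0.05. SPP1 (ENSSSCG00000009216), osteopontin, a secreted phosphoprotein, had the largest value, 1.49 ± 0.92 (edgeR p = 0.121; exact permutation p = 0.318). It ran from 0 over 0.848 to 5.52 CPM in the control and from 0 over 1.77 to 20.7 CPM in D5000. The height came from D5000 replicates 11 (130 counts) and 24 (105 counts), as 6 of 8 D5000 pigs lay within the control range, and without replicate 11 the value was 0.71. Without replicates 6 and 18, which were the 2 lowest, it was 1.89 ± 0.87, at an unadjusted p under 0.05. KLF4, a zinc finger factor, was at 0.99 ± 0.58 and the kinase PDK4, which holds back glucose oxidation, at -0.45 ± 0.28. The intestinal targets CALB1, TRPV6 and S100G had 9, 3 and 0 counts over the 16 libraries.

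Immediate-early genes, which are transcribed within minutes of a stimulus and also respond to handling of tissue, held 4 members at an unadjusted p under 0.05, as many as the liver transcripts described further on. Of 25 tested immediate-early and heat shock genes 16 were above and 9 below the control, 4 reached that p above it (3.6% of all genes did) and 0 below it, and the median log2 fold change was 0.22. The 4 were ATF3, IER5, JUN and DUSP1. The list mean lay between 5.53 and 6.75 log2 CPM in the control and between 6.02 and 7.56 in D5000, above the control mean in 5 of 8 pigs, highest in replicate 5. Its median was 0.24 without D5000 replicates 6 and 18, 0.23 with the assigned share as a covariate and 0.24 with liver transcripts. When and how the muscle was taken from each pig was not given in the sources used here, and its part in these values was not tested.

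ATF3 (ENSSSCG00000015595), a stress-induced leucine zipper factor, stood at 1.12, 56.6 and 227 CPM in the control and at 80.5, 162 and 756 CPM in D5000. Every D5000 pig lay above the control median, 3 of them (replicates 5, 15 and 25) above the highest control pig, and control replicates 17 and 16 were lowest. The log2 fold change was 2.22 ± 0.72 (edgeR p = 0.00826; exact permutation p = 0.00746, both unadjusted), and 2.50 ± 0.83 without D5000 replicates 6 and 18. JUN (ENSSSCG00000031912), a subunit of the AP-1 factor, was at 41.4, 111 and 300 CPM in the control and 88.3, 226 and 691 CPM in D5000. Here 4 D5000 pigs lay above the highest control pig and 3 below the control median, at 1.15 ± 0.42 (edgeR p = 0.0127; exact permutation p = 0.073). The value was 0.58 ± 0.39, no longer at an unadjusted p under 0.05, without replicates 6 and 18, which were the 2 highest. IER5 stood at 1.35 ± 0.52, the phosphatase DUSP1 at 1.01 ± 0.46, and FOS, the partner of JUN, at 2.04 ± 0.95 (the last at an unadjusted p over 0.05). The heat shock proteins and co-chaperones of the list lay on both sides of the control, from CRYAB at -0.51 and HSPB1 at -0.36 to HSPD1 at 0.22 and HSPH1 at 0.31.

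The gene with the smallest p of all was TRIB1 (ENSSSCG00000038500), a pseudokinase that brings a ubiquitin ligase to its substrates. It stood at 29.4, 59.8 and 103 CPM in the control and at 58.9, 158 and 198 CPM in D5000. Of the D5000 pigs 6 lay above the highest control pig, and replicates 29 and 24 lay within the control range. The fold was 2.31, or 1.21 ± 0.30 on the log2 scale (edgeR p = 0.000462, adjusted p = 0.844; exact permutation p = 0.00342, unadjusted). It stayed between 1.06 and 1.36 over 28 alternatives. CSRNP1 (ENSSSCG00000011264), a nuclear factor first found as a target of axin, was at 1.71, 4.36 and 10.1 CPM in the control and 1.68, 19.2 and 56.6 CPM in D5000. Its D5000 pigs were spread over more than the control range: 5 lay above all controls, and replicate 29 lay below all of them. The log2 fold change was 2.12 ± 0.53 (edgeR p = 0.000765; exact permutation p = 0.0511), and 1.42 ± 0.54 without replicates 6 and 18, which were the 2 highest.

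Among growth factor and YAP target genes, 14 of 22 tested were above the control and 8 below, with a median of 0.24. That median was 0.18 without D5000 replicates 6 and 18, and 0.08 with the assigned share as a covariate. With voom it was 0.08, with 11 of 22 above. CCN2 and CCN1 were the 2 members at an unadjusted p under 0.05 above the control (3.6% of all genes were). CCN2 (ENSSSCG00000004192), a matricellular protein of connective tissue growth, stood at 8.40, 15.7 and 28.0 CPM in the control and at 11.0, 26.0 and 113 CPM in D5000. In D5000, 7 pigs lay above the control median and 3 above the highest control, while replicate 18 was lowest. The log2 fold change was 1.31 ± 0.38 (edgeR p = 0.00239; exact permutation p = 0.0267, both unadjusted). Replicate 24 carried part of it, as the value was 0.89 without that pig. CCN1, its relative, stood at 4.27, 15.7 and 28.4 CPM against 5.58, 21.7 and 131 CPM. The log2 fold change of CCN1 was 1.24 ± 0.51 (edgeR p = 0.0251; exact permutation p = 0.245), and only D5000 replicates 5 and 6 lay above the highest control, so that without replicate 5 the value was 0.58. The cardiac and muscle ankyrin repeat protein ANKRD1, another target, was at 0.65 ± 0.45 and CCN3 at -1.06 ± 0.76.

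**Figure D3:**
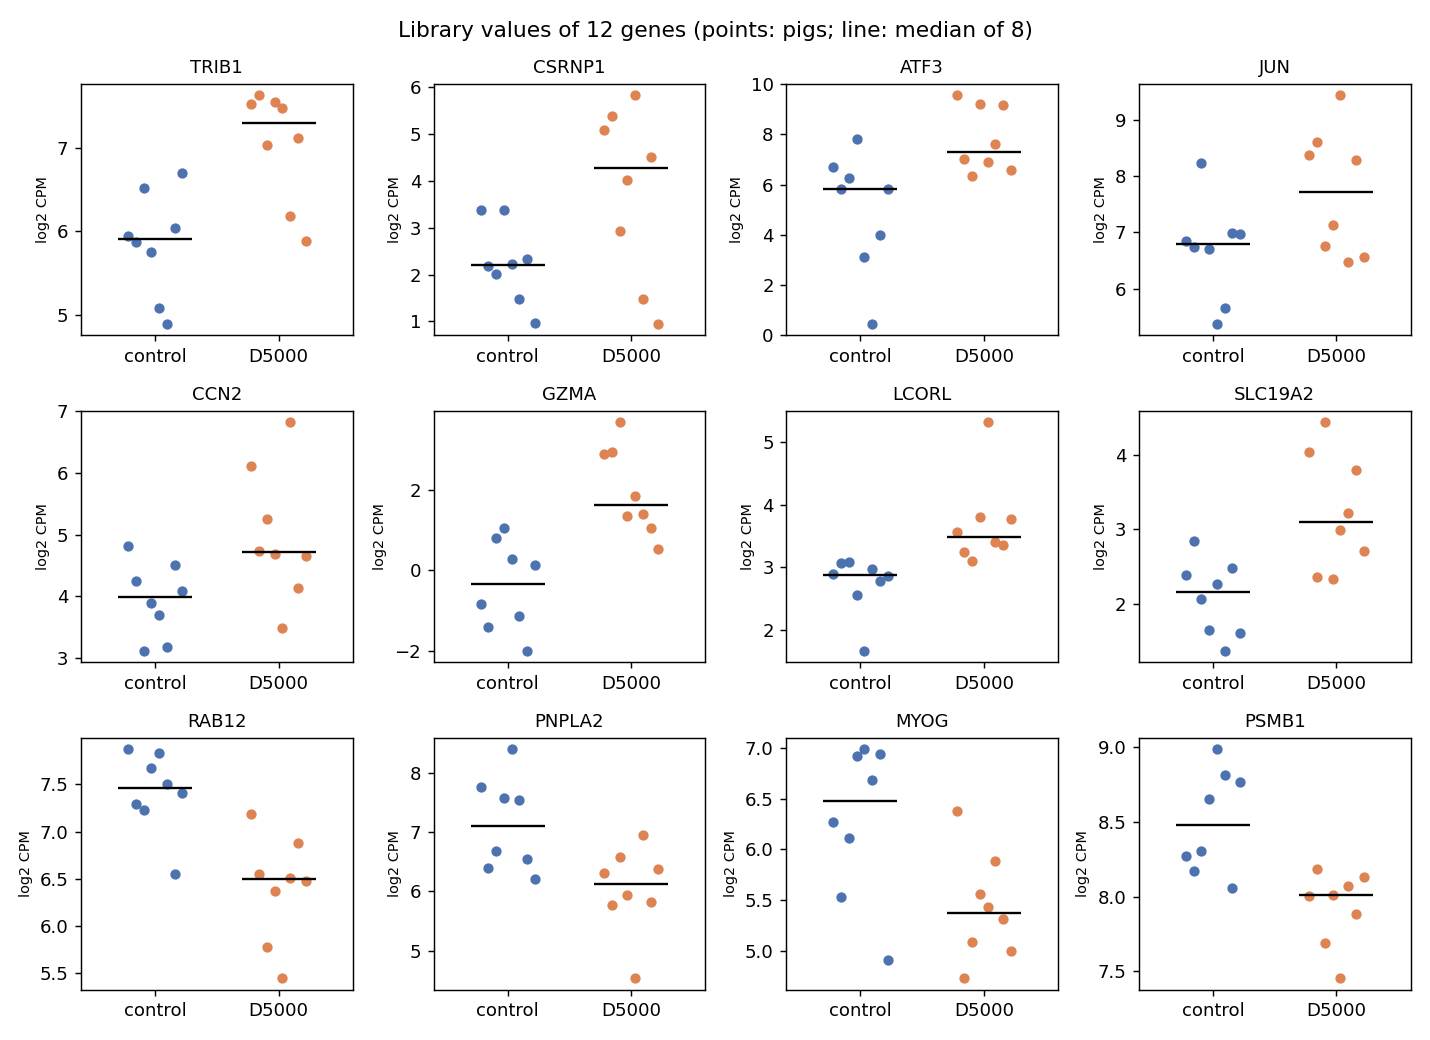
Log2 CPM of 12 genes in each of the 8 control (blue) and 8 D5000 (orange) pigs, with the median of each diet as a line and a vertical scale that differs between panels. In the panel of LCORL every D5000 pig lies above every control pig, and in the other panels the diets overlap.

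Immune genes were led by GZMA, a serine protease of cytotoxic lymphocytes. The identifier ENSSSCG00000016903 had 0 to 10 counts in the control and 12 to 78 in D5000, that is 0, 0.584 and 1.81 CPM against 1.19, 2.85 and 12.4 CPM. Of the D5000 pigs 7 lay above the highest control pig (replicate 14), of which replicate 25, at 1.82 CPM, lay just above it, and replicate 29 lay within the control range. The log2 fold change was 2.73 ± 0.72 (edgeR p = 0.0013, adjusted p = 0.844; exact permutation p = 0.000622, unadjusted), and 2.68 ± 0.79 without D5000 replicates 6 and 18. The symbol belongs to 2 identifiers, between which the counting could split reads. The second, ENSSSCG00000016902, stood at 1.03 ± 0.89 (edgeR p = 0.259; exact permutation p = 0.276), and at 0.27 without D5000 replicate 18. Summed, both ran over 0, 1.92 and 4.12 CPM in the control and 2.62, 5.63 and 15.6 CPM in D5000. On the summed values 4 of 8 D5000 pigs lay above the highest control, and the means of log2(CPM + 0.5) differed by 1.66 (exact permutation p = 0.00233, unadjusted), so the value of the first identifier alone is uncertain.

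Other lymphocyte genes lay nearer to the control. Of 16 tested identifiers of lymphocytes 10 were above and 6 below the control with a median of 0.19. Only the first of GZMA reached an unadjusted p of 0.05, above the control, as did 3.6% of all genes. The list median was 0.05 without D5000 replicates 6 and 18. With the assigned share as a covariate it was 0.03 (8 of 16 above), and with liver transcripts -0.02 (8 of 16 above). Perforin PRF1 stood at -0.43, NKG7 at -0.21, CCL5 at -0.07, CD2 at 0.25 and the leukocyte phosphatase PTPRC at 0.48 ± 0.30, or 0.13 ± 0.26 without D5000 replicates 6 and 18. In whole muscle, fewer cells of a type and less RNA per cell cannot be told apart. CD163, the haemoglobin scavenger receptor of macrophages, was the only macrophage, neutrophil or mast cell gene at an unadjusted p under 0.05 (13 of 22 above, median 0.06). Of all genes, 3.6% were at that p above the control. Without replicate 18, or with the assigned share or liver transcripts as a covariate, 0 of 22 were at that p. CD163 stood at 11.3, 18.5 and 38.7 CPM in the control and 20.4, 32.1 and 66.8 CPM in D5000. All 8 D5000 pigs lay above the control median and 4 above the highest control, at 0.72 ± 0.31 (edgeR p = 0.0283; exact permutation p = 0.0337), yet at 0.35 with liver transcripts as a covariate.

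Interferon-stimulated genes had 18 of 25 tested above the control and 7 below, with a median of 0.24. RSAD2, an antiviral radical enzyme, at 0.83 ± 0.37 (edgeR p = 0.0361; exact permutation p = 0.259), and the T cell chemokine CXCL9, at 0.86 ± 0.39 (edgeR p = 0.0391; exact permutation p = 0.101), reached an unadjusted p of 0.05, while ISG15 stood at -1.15 ± 0.63. RSAD2 and CXCL9 were 2 of 25 at that p above the control, as were 3.6% of all genes. Without replicate 18, or with the assigned share or liver transcripts as a covariate, 0 of 25 reached it. Without replicates 6 and 18, RSAD2 was at 0.55 and CXCL9 at 0.71, both at an unadjusted p over 0.05. The height of the list rested on replicate 18, which had the highest list mean (4.62 log2 CPM). Without it the median was -0.01, with 11 of 25 above, and with the assigned share as a covariate it was -0.12. For antigen presentation 9 of 14 were above the control, with a median of 0.10, or -0.05 without replicate 18.

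Fast-twitch contractile genes lay mostly below the control, slow-twitch genes lay on both sides of it, and the diets overlapped in both. Of 14 fast-twitch genes tested 12 were below and 2 above, with a median log2 fold change of -0.38, and 3 reached an unadjusted p under 0.05 below the control (1.84% of all genes did). The list mean lay between 9.42 and 11.51 log2 CPM in the control and between 8.68 and 10.72 in D5000 (means 10.57 ± 0.69 and 10.02 ± 0.72, SD, n = 8; exact permutation p = 0.139, adjusted p = 0.492). It was below the control mean in 6 of 8 D5000 pigs and lowest in replicate 18. ATP2A1 (ENSSSCG00000007805) encodes the pump that returns calcium to the reticulum of fast fibres. It gave 578, 3075 and 6213 CPM in the control and 94.1, 943 and 2400 CPM in D5000. All 8 D5000 pigs lay under the control median and 2 of them, replicates 18 and 6, under the lowest control, at -1.39 ± 0.56 (edgeR p = 0.0219; exact permutation p = 0.0611). Without those 2 the value was -1.02 ± 0.48. With the assigned share as a covariate ATP2A1 stood at -1.02 and with liver transcripts at -0.75, both at an unadjusted p over 0.05. MYLK2, the kinase of skeletal myosin light chain, stood at -1.38 ± 0.59 (edgeR p = 0.0328; exact permutation p = 0.119) and the calcium buffer parvalbumin, PVALB, at -1.08 ± 0.50, and MYLK2 was at -1.03 ± 0.58 without replicates 6 and 18. With the assigned share as a covariate the list median was -0.03 (10 of 14 below), and with liver transcripts it was 0.08 (5 of 14 below). With either covariate, 0 of 14 reached an unadjusted p under 0.05. Without replicates 6 and 18 the list median was -0.36 (13 of 14 below), and 1 of 14 reached that p. Leaving out 1 library gave medians of -0.50 to -0.16, with -0.16 without control replicate 14 and -0.26 without D5000 replicate 18.

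Of 10 slow-twitch genes 7 were above and 3 below the control, with a median of 0.08 that ran from -0.50 to 0.31 when 1 library was left out. The slow list mean was 8.88 log2 CPM in D5000 replicate 24, against 5.39 to 6.91 in the other 7 D5000 pigs and 5.06 to 8.24 in the control, so both diets mix pigs with much and with little slow-twitch transcript. Without replicate 24 the median was -0.50. The symbols of the adult myosin heavy chains MYH1, MYH2, MYH4 and MYH7 matched no identifier, so they are not analysed here. Calcium release and handling genes were at 11 above and 19 below of 30 (median -0.04). That median was 0.005 (16 of 31 above) without replicates 6 and 18. It was 0.11 (17 of 30 above) with the assigned share as a covariate and 0.17 (19 of 30 above) with liver transcripts. HRC, the histidine-rich calcium-binding protein of the sarcoplasmic reticulum, stood at -1.31 ± 0.55 (edgeR p = 0.0295; exact permutation p = 0.152), and at -0.98 without replicates 6 and 18 and -0.48 with liver transcripts as a covariate. The calcium channel subunit CACNB1 was at -0.82 ± 0.38 (edgeR p = 0.0436; exact permutation p = 0.151) and S100A1, a calcium sensor that acts on the release channel, at 0.91 ± 0.44. The store-operated pair ORAI1 and STIM1 stood at -0.68 and -0.47, and the pore of the voltage sensor CACNA1S at 1.19 ± 0.74. General fibre markers were at 9 below and 2 above of 11 (median -0.20), and at 6 below and 5 above without replicates 6 and 18. Their median turned to 0.07 (7 of 11 above) with the assigned share as a covariate and to 0.26 (10 of 11 above) with liver transcripts.

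**Figure D4:**
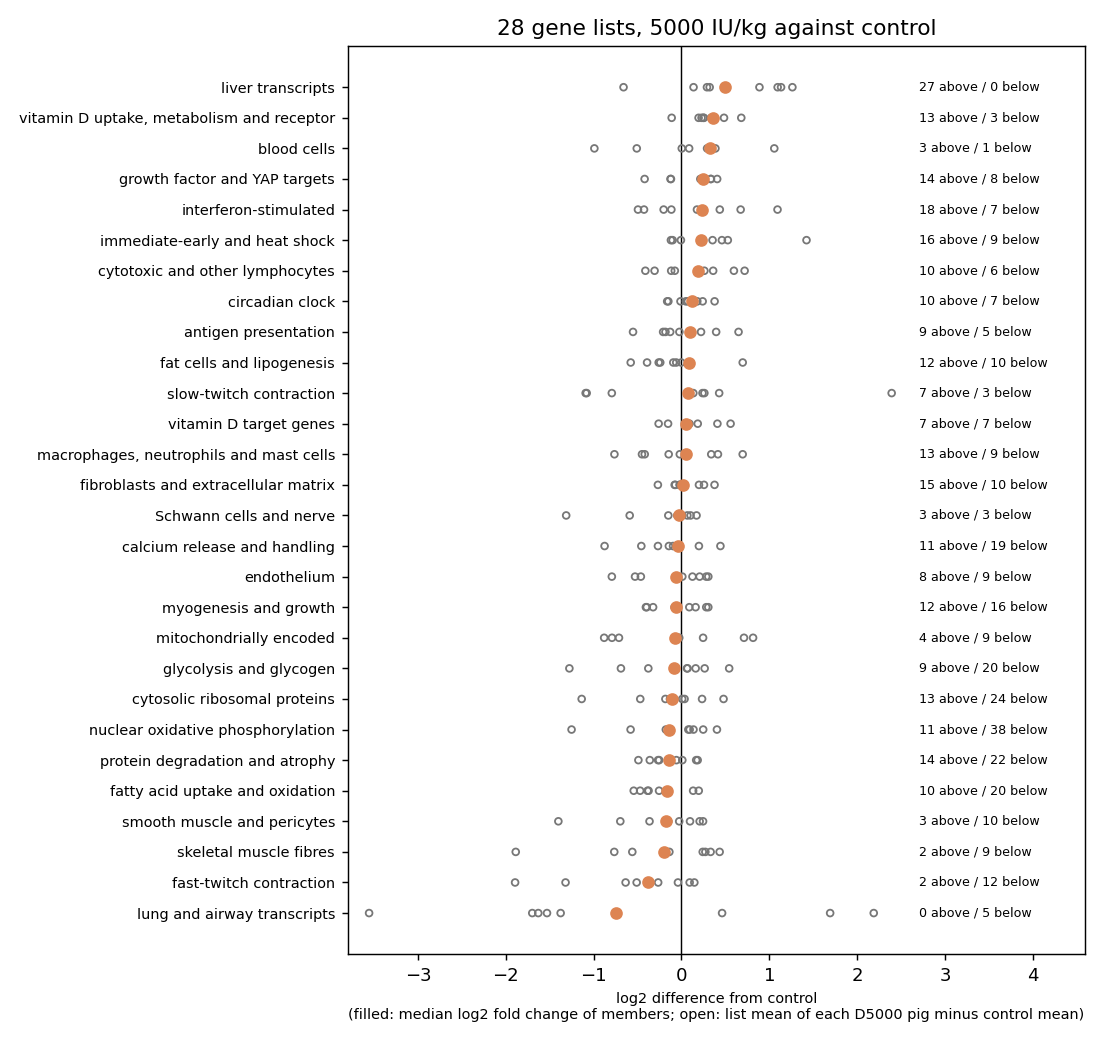
The 28 gene lists, ordered by the median log2 fold change of their tested members (filled points), with the mean of each D5000 pig minus the control mean (open points) and, at the right, the number of members above and below the control. Open points lie on both sides of 0 in every list, and the list furthest above, liver transcripts, has 27 of 27 members above.

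Most tested genes of fatty acid uptake and oxidation lay below the control, and genes of fat cells and lipogenesis lay on both sides of it. PNPLA2 (ENSSSCG00000012841), adipose triglyceride lipase, stood at 73.7, 144 and 337 CPM in the control and 22.9, 70.0 and 124 CPM in D5000. All 8 D5000 pigs lay below the control median and 4 below the lowest control, at -1.16 ± 0.33 (edgeR p = 0.00216; exact permutation p = 0.0101, both unadjusted) and -0.96 ± 0.33 without replicates 6 and 18. Its neighbours on the lipid droplet, PLIN5 and hormone-sensitive lipase LIPE, were at -1.01 ± 0.59 and -0.64. SCD, stearoyl-CoA desaturase, stood at 50.7, 112 and 276 CPM against 99.5, 154 and 585 CPM, with 2 D5000 pigs above the highest control, at 0.90 ± 0.38 (edgeR p = 0.027; exact permutation p = 0.0645). Replicate 25 was the highest, and without it the value of SCD was 0.51. Of the other synthesis genes, GPAM stood at 1.42, ACACA at 0.62, THRSP at 0.61, SREBF1 at 0.43, ACLY at 0.40, ELOVL6 at 0.35 and FASN at 0.10, while ME1 was at -0.59 and AGPAT2 at -0.66, each at an unadjusted p over 0.05. Over all 22 tested genes of fat cells and lipogenesis 12 were above and 10 below (median 0.08), and the median was -0.31 without D5000 replicate 25.

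In fatty acid uptake and oxidation 20 of 30 tested genes were below the control and 10 above, with a median of -0.16 that stayed negative in each of 28 alternatives. CPT2 (ENSSSCG00000003851), which hands long-chain acyl groups to the mitochondrial matrix, stood at 7.77, 17.4 and 28.8 CPM in the control and 4.52, 7.89 and 20.1 CPM in D5000. Of the D5000 pigs 7 lay below the control median and 4 below the lowest control, at -0.86 ± 0.33 (edgeR p = 0.017; exact permutation p = 0.0202), -0.80 ± 0.34 without replicates 6 and 18 and -0.96 with liver transcripts as a covariate. FABP3, the muscle fatty acid binding protein, stood at -1.25 ± 0.52 (edgeR p = 0.0257; exact permutation p = 0.15), but control replicate 16 held 1119 CPM against 60.8 to 255 CPM in the other 7, and without it the value was -0.38. The carrier SLC25A20 and the electron transfer dehydrogenase ETFDH, which act in the same oxidation, stood at -0.52 ± 0.27 and -0.60 ± 0.30. Nuclear genes of oxidative phosphorylation lay at 38 below and 11 above of 49, by small amounts (median -0.14, 0 at an unadjusted p under 0.05). That direction turned with the assigned share as a covariate, to a median of 0.11 with 41 of 49 above. Mitochondrially encoded genes (9 of 13 below, median -0.07) and glycolysis and glycogen genes (20 of 29 below, median -0.09) also turned with that covariate, to 0.11 and 0.10. Leaving out D5000 replicate 18 turned them too, to 0.02 (7 of 13 above) and 0.03 (16 of 29 above). SLC25A34, a carrier of the inner mitochondrial membrane, stood at 36.6, 112 and 291 CPM in the control and 16.4, 64.9 and 103 CPM in D5000, at -1.27 ± 0.40 (edgeR p = 0.00413; exact permutation p = 0.0528). All its D5000 values were below the control median, yet 7 of 8 lay within the control range.

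Genes of myogenesis and growth lay on both sides of the control, and 1 of them, MYOG, was among the 10 genes with the smallest p below it. MYOG (ENSSSCG00000034654), the factor that drives myoblast differentiation, stood at 29.8, 89.9 and 127 CPM in the control and 26.2, 41.1 and 83.0 CPM in D5000. Every D5000 pig lay below the control median, but 7 lay within the control range because control replicate 28 was low. On the log2 scale the fitted difference was -0.94 ± 0.30 (edgeR p = 0.00449; exact permutation p = 0.0205, both unadjusted), and it was -0.83 ± 0.31 without D5000 replicates 6 and 18. Its relatives MYOD1 and MYF6 stood at 0.36 and 0.39, above the control. IGF1R, the receptor of insulin-like growth factor, was at 1.21 ± 0.56 (edgeR p = 0.044; exact permutation p = 0.0687), but at 0.30 ± 0.57 without replicates 6 and 18. MSTN, myostatin, which limits muscle growth, had 1.34, 6.97 and 18.6 CPM in the control and 0.133, 6.44 and 9.80 CPM in D5000, at -0.52 ± 0.57 (edgeR p = 0.37; exact permutation p = 0.484). Over the 28 tested genes of myogenesis and growth, 12 were above and 16 below, with a median of -0.06.

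Proteasome subunits, which degrade ubiquitin-tagged proteins, lay mostly below the control. Of 11 tested subunits in the degradation and atrophy list, 9 were below the control, with a median of -0.22. Over all genes the median was 0.02 and 52.3% were above. The subunit PSMB9, listed with antigen presentation, stood above the control at 0.64 ± 0.36 (edgeR p = 0.0829; exact permutation p = 0.108). PSMC1, PSMB1 and PSMA3, 3 of the 11, reached an unadjusted p under 0.05 below the control, as did 1.84% of all genes. They were grouped after their values had been seen. PSMB1 (ENSSSCG00000027257), a subunit of the core ring, stood at 267, 359 and 507 CPM in the control and 175, 257 and 290 CPM in D5000. Every D5000 pig lay below the control median and 5 below the lowest control. It differed by a log2 fold change of -0.59 ± 0.23 (edgeR p = 0.0169; exact permutation p = 0.00109, both unadjusted), and it stayed between -0.67 and -0.45 over 28 alternatives. PSMC1, an ATPase of the cap, was at 87.6, 112 and 170 CPM against 39.8, 77.0 and 102 CPM, with 6 of 8 D5000 pigs below the lowest control, at -0.65 ± 0.24 (edgeR p = 0.0127; exact permutation p = 0.00575). PSMA3 stood at -0.55 ± 0.24. The muscle ubiquitin ligases of atrophy were near the control, FBXO32 at -0.32 ± 0.48 and TRIM63 at -0.02 ± 0.37. Over the whole degradation and atrophy list 22 of 36 were below, with a median of -0.15, and 14 above. RAB12 (ENSSSCG00000038026), a small GTPase of endosome to lysosome traffic, had the smallest p below the control. It stood at 93.7, 176 and 234 CPM in the control and 43.4, 90.0 and 145 CPM in D5000, with 5 of 8 D5000 pigs below the lowest control (replicate 23). This was a log2 fold change of -0.98 ± 0.26 (edgeR p = 0.000994; exact permutation p = 0.00124, both unadjusted), and -0.88 ± 0.26 without replicates 6 and 18. Cytosolic ribosomal protein genes lay at 24 below and 13 above of 37 (median -0.11), and at 18 below and 19 above without D5000 replicate 18.

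LCORL (ENSSSCG00000008748), a transcription factor gene tied to body size in several species, was 1 of 2 genes whose diets did not overlap (1 gene in each direction, 0.00981% of those tested each). It had 2.91, 7.08 and 8.23 CPM in the control and 8.29, 10.9 and 39.5 CPM in D5000. The gap was narrow, from control replicate 10 at 8.23 to D5000 replicate 11 at 8.29 CPM, with 50 and 52 counts. On the log2 scale the fitted difference was 1.12 ± 0.35 (edgeR p = 0.00371, adjusted p = 0.844; exact permutation p = 0.000155, unadjusted). That exact p is the smallest that 12870 splits can give. Values that do not overlap always give it, so it adds nothing to the non-overlap itself. The gene was picked from 10196 tested, a number near that of the splits. Replicate 18 was far above the rest, and without it the value was 0.72. The other non-overlapping gene, ENSSSCG00000040252, has no symbol in the table of names and stood at -0.98 ± 0.34.

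The remaining genes with the smallest p above the control were SLC19A2, DNAJC25, PTPRE, ADGRD1 and DDX18. SLC19A2, a thiamine transporter, gave 2.34, 4.25 and 6.90 CPM in the control and 4.81, 8.36 and 21.4 CPM in D5000. Every D5000 pig lay above the control median and 5 above the highest control, at 1.31 ± 0.38 (edgeR p = 0.00248; exact permutation p = 0.00373), and it stood at 1.49 ± 0.38 without replicates 6 and 18. DDX18, a helicase of ribosome assembly, had 9.06, 14.2 and 21.6 CPM against 15.8, 26.2 and 37.3 CPM, with 6 of 8 D5000 pigs above the highest control, at 0.81 ± 0.25 (edgeR p = 0.00386; exact permutation p = 0.00249). The co-chaperone DNAJC25 was at 1.31 ± 0.39, the tyrosine phosphatase PTPRE at 1.51 ± 0.46 and the adhesion receptor ADGRD1 at 1.24 ± 0.38. Replicate 18 was the highest D5000 pig for these 3 genes, and without replicates 6 and 18 they stood at 0.87, 0.83 and 0.90.

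Below the control, the remaining genes were ZMAT5, LIMK1, WDR18, ABL1, INO80B and ZSWIM8. ZMAT5, a protein of the minor spliceosome, gave 9.41, 19.5 and 44.3 CPM in the control and 0.453, 6.72 and 17.8 CPM in D5000. Of the D5000 pigs 6 lay below the lowest control, at -1.63 ± 0.43 (edgeR p = 0.00117; exact permutation p = 0.00218), and -1.45 ± 0.38 without replicates 6 and 18. LIMK1, the kinase that switches off the actin-severing protein cofilin, had 18.8, 37.7 and 46.9 CPM against 7.99, 14.5 and 31.7 CPM, with 6 of 8 D5000 pigs below the lowest control, at -1.01 ± 0.30 (edgeR p = 0.00287; exact permutation p = 0.00637). WDR18, which acts in ribosome assembly, was at -1.07 ± 0.33, the tyrosine kinase ABL1 at -1.24 ± 0.40 and the chromatin remodeller subunit INO80B at -1.07 ± 0.35. ZSWIM8, the receptor of a ubiquitin ligase in microRNA decay, was at -1.35 ± 0.45. In D5000 all 8 pigs lay below the control median for WDR18, INO80B and ZSWIM8, and 7 did for ABL1.

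**Figure D5:**
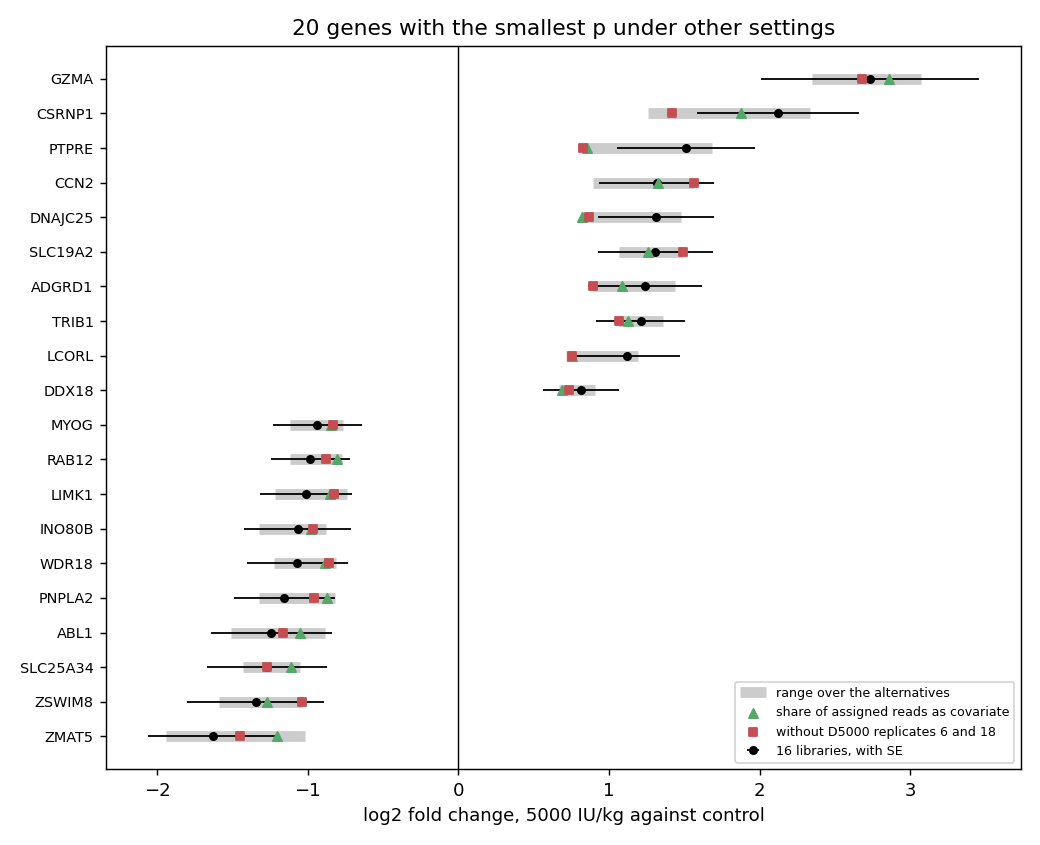
Log2 fold change of the 20 genes with the smallest p, with its SE (black), with assigned share as a covariate (green), without D5000 replicates 6 and 18 (red) and the range over the alternatives (grey bars). All 20 stay on their side of 0, and CSRNP1, PTPRE and ZMAT5 move furthest towards it. The 20 were picked for their small p in these same libraries. Of all 555 genes at an unadjusted p under 0.05, 554 kept their direction without replicates 6 and 18 and 555 with assigned share as a covariate.

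Transcripts typical of the liver were present in all 16 libraries and lay above the control for 27 of 27 tested genes (median log2 fold change 0.50), of which AMBP, ITIH2, CPS1 and VTN reached an unadjusted p under 0.05 (4 of 27, and 3.6% of all genes). Without replicates 6 and 18, without replicate 18 alone or with assigned share as a covariate, 0 of 27 reached it. AMBP was at 0.88 and ITIH2 at 0.87, and without replicates 6 and 18 they stood at 0.42 and 0.33. The summed level of the liver list ran over 7881, 16621 and 28323 CPM (lowest, median, highest) in the control and 9079, 24727 and 39037 CPM in D5000, and none of them was at 0 in all libraries. Albumin, ALB, stood at 2053, 4290 and 7135 CPM against 2437, 5352 and 10393 CPM, at 0.45 ± 0.35 (edgeR p = 0.217; exact permutation p = 0.204). The list mean was above the control mean in 7 of 8 D5000 pigs and overlapped between the diets (exact permutation p = 0.137, adjusted p = 0.492), with a median of 0.42 without replicates 6 and 18 and 0.24 with the assigned share as a covariate. The list mean was highest in replicate 18, and the part of these transcripts in the other lists was not tested beyond the covariate values given beside them. Of lung and airway transcripts, 5 of 5 tested genes were below the control (median -0.74, and from -1.12 to -0.36 with 1 library left out). Only 5 of 13 members passed the filter, and DESeq2, without that filter, had 4 above and 9 below. The list mean was 1.82 ± 2.33 log2 CPM in the control and 1.14 ± 1.95 in D5000 (SD, n = 8; exact permutation p = 0.528, adjusted p = 0.754). Of the D5000 pigs 3 of 8 lay above the control mean. The summed level of the lung and airway list ran over 1.15, 22.8 and 225 CPM in the control and 0.961, 10.6 and 142 CPM in D5000. The surfactant gene SFTPC stood at -1.47 ± 1.01 (edgeR p = 0.17; exact permutation p = 0.339), and at -0.77 without control replicate 9. Of blood cell genes 3 of 4 tested were above (median 0.32). The median was -0.08 (1 of 4 above) without replicates 6 and 18 and -0.17 (2 of 4 above) with the assigned share as a covariate. HBB was at 0.59 ± 0.38, or -0.09 ± 0.32 without replicates 6 and 18. Smooth muscle and pericyte genes lay at 10 below and 3 above of 13 (median -0.18), and their mean was lowest in replicate 18, without which the median was -0.02 (8 below, 5 above). Leaving out D5000 replicate 25 gave -0.37.

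At 10000 IU/kg, fitted with all 25 libraries and set against the same control pigs, so that the doses are not independent, TRIB1 stood at 0.55 ± 0.34, GZMA (the first identifier) at 1.81 ± 0.68, CCN2 at 0.90 ± 0.35, ATF3 at 1.28 ± 0.74 and LCORL at 0.57 ± 0.39. In the same fit 5000 IU/kg gave 1.20, 2.73, 1.31, 2.21 and 1.10 for these genes. RAB12 was at -0.46 ± 0.34 at 10000 IU/kg, MYOG at -0.30 ± 0.41, PSMB1 at -0.40 ± 0.25 and CPT2 at -0.44 ± 0.35, beside -0.96 for MYOG, -0.61 for PSMB1 and -0.88 for CPT2 at 5000 IU/kg. PNPLA2 and SCD stood at 0.86 ± 0.65 and 2.86 ± 0.75 at 10000 IU/kg, but at -0.48 ± 0.45 and 0.48 ± 0.38 without 1 library of that dose that is rich in fat-cell transcripts. These genes were named for a small p at 5000 IU/kg in these same libraries, which favours large values at that dose. Which dose has the larger values can therefore not be read from them, and no test between the doses was made.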

How the data were processed

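Messenger RNA of 25 muscle libraries, 1 per pig, was read with QuantSeq 3' mRNA-Seq FWD libraries (Lexogen) from RNA isolated by an A&A Biotechnology kit (Total RNA Mini), per the labels' protocols. The authors deposited unnormalized whole-number counts of reads per gene for each library. FastQC is named in the submitters' processing notes. Not given in the sources used here: aligner, counter, strand setting, genome build and annotation. Therefore no sequence or coordinate is printed, and reads of near-identical or overlapping genes may have been split.

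Pig gene identifiers (25880, of which 14857 have a symbol in the table of names used) were kept, and spike-in controls and the 5 summary lines per file were left out. The diets were compared over 16 libraries with edgeR 4.0.16 in R 4.3.3 (TMM scaling, quasi-likelihood test, genes kept by filterByExpr with a minimum count of 10 and a minimum total of 15, Benjamini-Hochberg adjustment over all 10196 genes, threshold 0.05). The test was checked on simulated counts. Gene counts per library, 4328704 to 12203813, and a common biological coefficient of variation of 0.575 set the precision. CPM are TMM-scaled, and log2 CPM carry a prior count of 2. The 2-sided exact permutation tests (numpy 2.4.6) took all 12870 splits of 8 and 8 and are not adjusted over genes. P-values measure the spread between these pigs, and litters could not be modelled.

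Genes named are the 10 with a symbol and the smallest p in each direction, the 2 tested members with the smallest p in each of 28 lists, and VDR, RXRA, CYP2R1, CYP27B1, CYP24A1, PDIA3, MSTN, CCN2, GZMA, SPP1, ACTA1, ALB and SFTPC. Other members were named after their values had been seen. Members and lists were chosen with earlier results of these data known. Alternatives were RLE and upper-quartile scaling, no filter and a minimum count of 50, DESeq2 1.42.0, voom in limma 3.58.1, fits with 25 and 24 libraries, 3 covariates, and leaving out each library. Leaving out D5000 replicates 6 and 18 together was added after seeing the data. Some genes that the naming rule covers are not reported here.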

Additional observations from a re-analysis of the deposited data

Results flagged for a closer look

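Within each diet, 184 groups of 8 values were examined for a library that lay far from the other 7, and 13 such values were found. Chance gives about 5% of groups. D5000 replicate 18 held 4 of the 13: LCORL highest at 5.31 log2 CPM (next 3.80), ZMAT5 lowest at -0.51 (next 2.24), the ribosomal protein gene RPS3 lowest at 7.77 (next 8.87), and the share of reads aligned to several places highest at 38.69% (next 21.69%). LCORL was also lowest in control replicate 16, at 1.66 log2 CPM (next 2.55). Both of its far values lie on the outer side of the gap between the diets.

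D5000 replicate 24 had a slow-twitch list mean of 8.88 log2 CPM (next 6.91) and the lowest MSTN, at -1.38 (next 1.22). Control replicate 10 was lowest for CD74, the invariant chain of antigen presentation, at 3.34 (next 5.22), and for IGF1R, at -1.27 (next 1.01). SOX18, an endothelial factor, was lowest in D5000 replicate 11 at 0.75 (next 3.27), and ALAS2, of haem synthesis in red cells, in control replicate 3 at -1.49 (next 1.25). CYP27B1 was highest in control replicate 9 at -1.41 and in D5000 replicate 29 at 0.19 log2 CPM, where the other 14 libraries, at 0 counts, stand at -1.99.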

How the results depend on the processing

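No gene passed the adjusted threshold in any of the 28 alternatives, and the smallest adjusted p lay between 0.248 (DESeq2) and 1.00 (liver transcripts as a covariate). The number of genes at an unadjusted p under 0.05 was 555 and moved by over 1.5 times to 1844 with no filter on low counts, 834 with DESeq2, 247 with assigned share as a covariate, 218 with liver transcripts as a covariate and 297 without D5000 replicates 6 and 18 (143 higher, 154 lower). Leaving out 1 library gave 312 to 770, with 312 without control replicate 16, 319 without D5000 replicate 18 and 354 without control replicate 17. Of the 555 genes, 187 were again at that p in the same direction without replicates 6 and 18, 183 with the share covariate, 134 with liver transcripts, 317 with voom and 547 with DESeq2. With no filter, genes of a few reads enter the test.

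Of 2173 values of named genes under alternatives, 21 changed sign. With the share covariate ANKRD2 was at 0.15, FBN1 at -0.29 and ALAS2 at -0.34. With liver transcripts ANKRD2 was at 0.0405, PYGM at 0.0874, MYOT at 0.0541, PDIA3 at -0.12 and ALB at -0.0425. DESeq2 gave FBN1 -0.0282, and voom gave FBN1 -0.49 and ND2 0.0418. Without D5000 replicates 6 and 18 FBN1 was at -0.65 and HBB at -0.0885, the difference in gene counts between diets was 326266 and that in the share of the 10 highest genes 0.877 percentage points. Leaving out 1 library took ANKRD2 from -1.41 to 0.15, RXRA from -0.0438 to 0.105, ACTA1 from -0.10 to 0.48, the top-10 share from -2.14 to 1.55 and the slow-twitch mean from -0.27 to 0.31. The cause was not tested. No paired analysis was possible because the diets share no animal numbers and the labels name no litters. No lung and airway gene was left at a minimum count of 50, so that list has no value there. A planned description of promoter motifs was not run, as no promoter sequences were used here. A gene with a standard error of 0.37 limits what these 16 libraries can show.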

Other observations

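Further gene groups lay near the control. Of 17 clock genes 10 were above it and 7 below (median log2 fold change 0.12). Of 25 genes of fibroblasts and matrix 15 were above and 10 below (median 0.02). TIMP1, an inhibitor of matrix proteases, stood at 4.90, 9.97 and 10.8 CPM in the control and 8.65, 10.9 and 22.2 CPM in D5000, at 0.70 ± 0.31 (edgeR p = 0.0366; exact permutation p = 0.0343), and FBN1, fibrillin, at 1.02 ± 0.62, or 0.00 without D5000 replicate 18. Of 17 endothelial genes 8 were above and 9 below (median -0.06), among them the vessel receptor ROBO4 at 1.11 ± 0.46 (edgeR p = 0.0241; exact permutation p = 0.137), or 0.59 without replicates 6 and 18.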
